A study of Mus musculus with 15 samples.

Results

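The 10 secreted ligands described here belong to the TGF-beta superfamily. They were followed across mouse brown and inguinal white adipose tissue, in libraries labelled wild type or knockout for the cytokine IL-33. They were the bone morphogenetic proteins Bmp2, Bmp4, Bmp7 and Bmp8b, the growth differentiation factor Gdf10, the activin subunit genes Inhba and Inhbb, and the TGF-beta genes Tgfb1, Tgfb2 and Tgfb3. The members were the rows of the count table whose Ensembl identifiers carry these symbols, and all 10 were found among 37991 identifiers. Polyadenylated RNA had been sequenced from 15 libraries of C57BL/6 mice in 4 groups. Brown adipose tissue at postnatal day 0.5 gave 4 wild-type libraries and 4 with the genotype label IL-33-/-. Inguinal white adipose tissue at postnatal day 24 gave 4 wild-type libraries and 3 labelled IL-33-/-, numbered 2 to 4. No treatment is named for any group. Tissue and age differ together, so a difference between the depots cannot be told apart from one between the ages. The labels do not say which part of Il33 the mutant allele lacks, or whether animals were pooled. They also do not tie each library to an animal of its own, and p-values therefore cover the spread between libraries, part or all of which may be technical.

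Ligands of this family are secreted as dimers and bring together type I and type II receptor kinases on the receiving cell. Receptors for bone morphogenetic proteins (BMPs) pass the signal to Smad1, Smad5 and Smad9, receptors for activins and TGF-betas pass it to Smad2 and Smad3, and both routes use Smad4. In adipose tissue, BMP4 and BMP2 are known for committing precursor cells to the fat lineage, BMP7 and BMP8b for brown adipocyte formation and heat production, and TGF-beta and activin signals for holding back adipocyte differentiation.

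Total counts were 31661512 to 41926108 in wild-type and 33782634 to 40802095 in labelled knockout brown libraries, and 26059635 to 53923009 in wild-type and 30835337 to 38765633 in knockout inguinal libraries. Levels are given as TMM-scaled counts-per-million values (CPM), which removes differences in depth and composition between libraries but not gene length. Il33 itself stood at 3.45, 4.61, 3.81 and 3.55 CPM in the inguinal wild type (libraries 1 to 4). Knockout libraries 2 to 4 held 0.346, 0.471 and 0.0791 CPM, a log2 change of -3.73 (adjusted p = 1.25e-05). In brown fat it stood at 1.82, 3.21, 2.01 and 1.73 CPM in wild-type libraries and at 0.413, 1.75, 1.41 and 0.594 CPM in the libraries labelled knockout. These brown groups overlap, and the log2 change of -1.08 did not pass the test (adjusted p = 0.229), and this group is named labelled knockout below. The defining markers of the tissues were present in every group: summed levels of 5 adipocyte genes (Adipoq, Plin1, Fabp4, Lep, Cidec) were 8132 to 18270 CPM, and those of 5 brown adipocyte genes (Ucp1, Cidea, Prdm16, Ppargc1a, Dio2) were 3352 to 9098 CPM in brown and 1107 to 2882 CPM in inguinal libraries. In bulk tissue, fewer cells of a type and less RNA per cell cannot be told apart.

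In inguinal fat, 2 of the 8 ligands that passed the filter on low counts were lower in the knockout, Inhbb and Tgfb2, and none was higher. Genes below an adjusted p of 0.05 made up 28.6% of the 15710 tested in inguinal fat (13.3% lower), so 2 of 8 ligands, or 25%, is close to that background and says nothing about the ligands as a group. In brown fat none of 8 passed the edgeR test, where 0.260% of 15796 genes passed. An unadjusted p below 0.05 was reached by 3 of 8 ligands and by 18.5% of all genes. Bmp2 and Gdf10 were nonetheless higher in every labelled knockout library than in any wild-type library, as 4.88% of tested genes were. The knockout effect differed between the depots for 2 of 9 ligands, Bmp2 and Tgfb2, where 9.00% of 16858 genes differed (4.20% with the lower effect in inguinal fat). Between the wild-type tissues, 7 of 8 differed, where 61.4% of 15979 genes did (30.7% in each direction). Bmp8b and Inhba held 80 and 71 counts over all 15 libraries and were too low for these tests, Bmp8b passing the filter in the test of the difference between the depots alone.

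**Figure D1:**
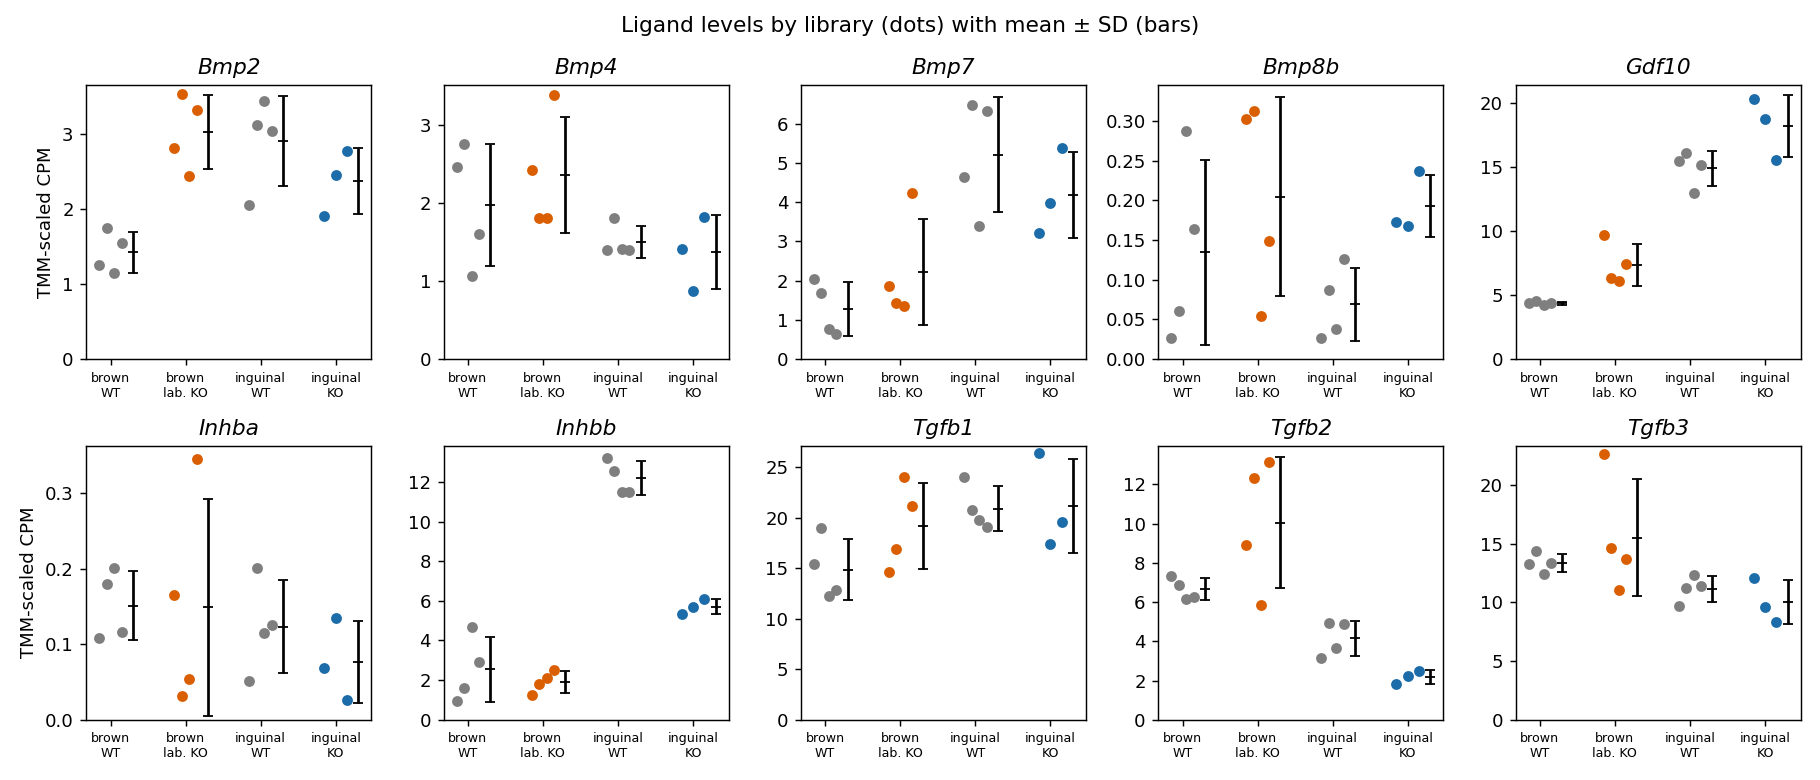
TMM-scaled CPM (vertical axes, each starting at 0) of the 10 ligands in wild-type and knockout libraries of each depot (lab. KO is the labelled knockout). Each dot is a library and the bar is the group mean with 1 SD. Inhbb and Tgfb2 are lower in all 3 inguinal knockout libraries than in any of the 4 wild-type ones, and Bmp2 and Gdf10 are higher in all 4 brown labelled knockout libraries than in any of the 4 wild-type ones.

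The promoters of Inhbb and Tgfb2 are shown because these are the ligands that fell in the inguinal knockout. Each line is the 250 bases upstream of the transcription start, read 5′ to 3′ on the gene's strand from RefSeq on build GRCm38.p6, with matches to searched motifs in capitals on either strand. The Inhbb window is chr1:119422249-119422498 (minus strand) and the Tgfb2 window is chr1:186705990-186706239 (minus strand).
Inhbb: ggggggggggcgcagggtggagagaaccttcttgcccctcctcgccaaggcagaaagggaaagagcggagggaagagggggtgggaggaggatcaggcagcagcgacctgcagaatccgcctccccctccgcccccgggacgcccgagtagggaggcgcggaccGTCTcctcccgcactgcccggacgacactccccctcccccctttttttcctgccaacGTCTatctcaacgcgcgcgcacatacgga
Tgfb2: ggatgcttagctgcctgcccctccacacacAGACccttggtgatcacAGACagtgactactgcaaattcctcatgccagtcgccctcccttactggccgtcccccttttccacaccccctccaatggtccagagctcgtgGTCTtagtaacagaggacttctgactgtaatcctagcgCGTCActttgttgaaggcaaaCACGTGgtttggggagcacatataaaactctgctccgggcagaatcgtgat

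The motifs searched, on both strands, were the SMAD box GTCT, the AP-1 site TGANTCA, the cyclic AMP response core TGACG, the E-box CACGTG and the GC-rich SMAD site GGCGCC, none of which overlapped another in these windows. The Inhbb window held GTCT at 86 and 29 bases before the start (positions -86 and -29) and none of the others. The Tgfb2 window held GTCT at -220, -203 and -110, TGACG at -72 and the E-box at -51. The Inhbb window was 68% G or C and that of Tgfb2 53.6%. Of the 10 ligands, 7 had a window in the table (not Bmp2, Bmp7 and Tgfb3). GTCT lay in 7 of these 7 and in 82.9% of 32851 mouse promoter windows of the same length. The E-box lay in 2 of 7, Tgfb2 and Bmp4, and in 6.02% of all windows, and TGACG lay in Tgfb2 alone and in 17.8% of all windows. The AP-1 site (6.75% of all windows) and GGCGCC (9.59%) lay in none of the 7. A match is a run of letters and not a binding site.

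Inhbb encodes the beta B subunit, which pairs with itself to make activin B. In inguinal fat it stood at 13.2, 12.6, 11.5 and 11.5 CPM in the wild type (libraries 1 to 4, mean 12.2 ± 0.848, SD, n = 4). Knockout libraries 2 to 4 stood at 5.32, 5.68 and 6.09 CPM (5.70 ± 0.385, n = 3). The groups were tight and far apart, the highest knockout library lying below every wild-type library. The log2 change was -1.08 (SE 0.13, 95% interval -1.35 to -0.81, adjusted p = 4.40e-05). With all 4 groups in 1 fit, which takes in the brown libraries too, the same Inhbb change missed the threshold (adjusted p = 0.0549). The cause was not tested. In brown fat, Inhbb stood at 0.949, 1.62, 4.70 and 2.92 CPM in wild-type libraries and at 1.24, 1.78, 2.08 and 2.52 CPM in labelled knockout ones. The brown wild-type libraries span the labelled knockout ones on both sides, and the change was not resolved (log2 change -0.42, 95% interval -1.43 to 0.58, adjusted p = 0.653). The inguinal and brown effects on Inhbb were not shown to differ (difference -0.68, SE 0.50, adjusted p = 0.409).

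Tgfb2 encodes TGF-beta 2, one of a trio of latent cytokines stored in the matrix until released. In inguinal fat it stood at 3.17, 4.92, 3.66 and 4.90 CPM in wild-type libraries (4.16 ± 0.888, n = 4) and at 1.83, 2.22 and 2.51 CPM in knockout libraries (2.19 ± 0.338, n = 3). All 3 knockout libraries lay below the lowest wild-type library, and the log2 change was -0.92 (SE 0.21, 95% interval -1.37 to -0.47, adjusted p = 0.00527). Of all genes tested, 18.5% were lower with no overlap between the inguinal groups, as Inhbb and Tgfb2 were. In brown fat, Tgfb2 stood at 7.35, 6.87, 6.16 and 6.25 CPM in wild-type libraries and at 8.89, 12.3, 5.84 and 13.1 CPM in labelled knockout ones. Labelled knockout libraries 1, 2 and 4 were above all wild-type libraries and library 3 was below them all, and the log2 change of 0.59 (SE 0.24) did not pass (adjusted p = 0.230). The inguinal effect minus the brown one was -1.52 on the log2 scale (SE 0.34, 95% interval of the difference -2.24 to -0.80, adjusted p = 0.0126).

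Markers of other cell types moved with these inguinal results. Skeletal muscle genes (Myh4, Myh1, Ckm, Acta1, Actn3, Ryr1) summed to 77.6 to 228 CPM in wild-type and 23.4 to 27.7 CPM in knockout libraries, with 5 of 6 lower. Smooth muscle and pericyte genes (Myh11, Acta2, Cnn1, Tagln, Rgs5) summed to 448 to 646 CPM against 388 to 427 CPM in knockout libraries, with 3 of 5 lower. Adipose progenitor genes (Pdgfra, Pdgfrb, Dpp4, Ly6a, Cd34) summed to 493 to 607 CPM against 417 to 473 CPM, and endothelial genes (Pecam1, Cdh5, Kdr, Tek, Emcn) to 813 to 977 CPM against 728 to 794 CPM, each with 2 of 5 lower. Immediate early genes overlapped, at 102 to 112 CPM against 90.7 to 119 CPM, with 3 of 6 lower and 1 higher. Brown adipocyte genes summed to 1107 to 1718 CPM against 2298 to 2882 CPM, with 2 of 5 higher, and mast cell genes (Cpa3, Mcpt4, Cma1, Kit) to 48.2 to 53.2 CPM against 87.1 to 96.8 CPM, with 3 of 4 higher. Epithelial genes (Krt5, Krt14, Krt8, Krt18, Epcam, Cdh1) summed to 3.14 to 9.85 CPM against 0.941 to 1.27 CPM, and the 1 tested was lower. Of the markers on all 14 lists, only Krt5 of the epithelial list was at 0 in a whole group, the inguinal knockout. Their part in the Inhbb and Tgfb2 results was not tested.

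The remaining TGF-beta genes did not pass in inguinal fat. Tgfb1, the form most tied to immune cells and fibrosis, stood at 24.0, 20.7, 19.8 and 19.0 CPM in wild-type and 26.4, 17.4 and 19.6 CPM in knockout libraries, with a log2 change of 0.03 (95% interval -0.27 to 0.33). Tgfb3 stood at 9.68, 11.2, 12.3 and 11.4 CPM in wild-type and 12.1, 9.65 and 8.33 CPM in knockout libraries, with a log2 change of -0.14 (95% interval -0.46 to 0.17). For both, the knockout libraries lay on either side of wild-type ones.

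Bmp2, a ligand of the BMP receptors known from bone and fat precursor cells, was the member furthest from its wild-type level in brown fat. It stood at 1.25, 1.74, 1.15 and 1.54 CPM in brown wild-type libraries (1.42 ± 0.272, n = 4) and at 2.81, 3.53, 2.43 and 3.31 CPM in labelled knockout ones (3.02 ± 0.495, n = 4). The groups did not overlap. The log2 change was 1.08 (SE 0.22, 95% interval 0.59 to 1.58), with an unadjusted p of 0.000659 and an adjusted p of 0.0744. Over all genes in brown fat 41 passed and 2930 had an unadjusted p below 0.05. Bmp2 passed with the DESeq2 Wald test (adjusted p = 0.000349), with limma-voom and library quality weights, which give less weight to more variable libraries (0.00735), in a joint fit of all 4 groups (0.0107) and when labelled knockout library 1 was left out (0.0114), and its adjusted p ran from 0.000349 to 0.220 over 14 alternatives. These settings also called far more genes overall: 6.81% with DESeq2, 19.8% with weighted limma-voom, 6.83% with all groups and 18.1% (2905 genes) without that library. Leaving out any of the other seven brown libraries left 2 to 19 genes.

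In inguinal fat, Bmp2 stood at 2.05, 3.11, 3.43 and 3.03 CPM in wild-type and 1.90, 2.45 and 2.77 CPM in knockout libraries. These groups overlapped, with a log2 change of -0.27 (95% interval -0.74 to 0.20, adjusted p = 0.391). The inguinal effect minus the brown one was -1.37 on the log2 scale (SE 0.32, 95% interval of the difference -2.05 to -0.70, adjusted p = 0.0156). Bmp2 and Tgfb2 passed in all 20 alternatives run for this difference, with adjusted p-values up to 0.0481 for Bmp2 and 0.0440 for Tgfb2. Of the marker lists, 5 of 6 skeletal muscle genes and 4 of 6 immediate early genes also had a lower effect in inguinal fat, and their part in these differences was not tested. For Bmp8b the difference was 0.78 (SE 0.98, adjusted p = 0.657).

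**Figure D2:**
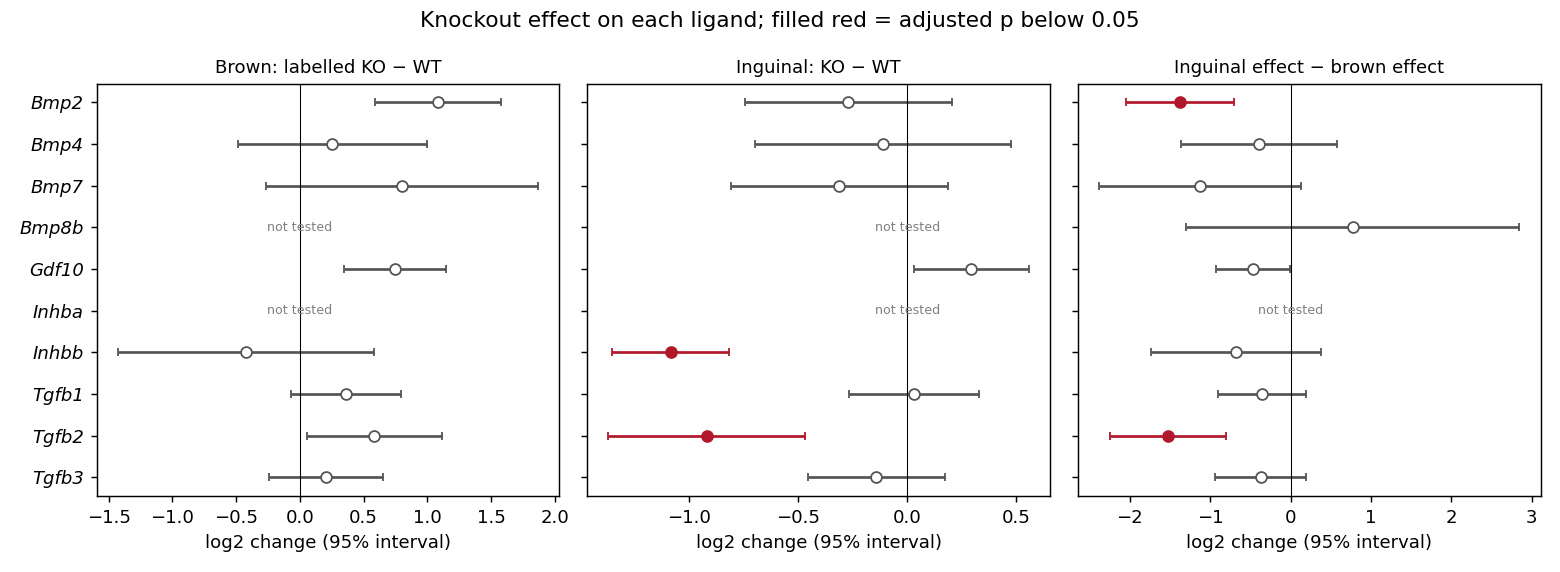
Log2 change of each ligand (horizontal axes, edgeR estimate with its 95% interval) for labelled knockout against wild type in brown fat, knockout against wild type in inguinal fat, and the inguinal minus the brown effect. Filled red points passed at an adjusted p below 0.05: Inhbb (-1.08) and Tgfb2 (-0.92) in inguinal fat, and Bmp2 (-1.37) and Tgfb2 (-1.52) in the difference, while none passed in brown fat.

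Gdf10, a BMP3-like ligand, was also higher in every labelled knockout brown library. It stood at 4.39, 4.5, 4.21 and 4.38 CPM in brown wild-type libraries (4.37 ± 0.119, n = 4), and at 9.66, 6.31, 6.06 and 7.44 CPM in labelled knockout ones (7.37 ± 1.64, n = 4). The log2 change was 0.75 (SE 0.18, 95% interval 0.34 to 1.15, adjusted p = 0.102). Like Bmp2, it passed with DESeq2 (adjusted p = 0.00279), weighted limma-voom (0.0132), the joint fit of all groups (0.0106) and when labelled knockout library 1 was left out (0.0255), where its log2 change was lower at 0.59, and the range over 14 alternatives was 0.00279 to 0.264. In inguinal fat it stood at 15.4, 16.1, 13.0 and 15.2 CPM in wild-type and at 20.3, 18.7 and 15.5 CPM in knockout libraries. Knockout library 4 lay among the wild-type libraries and the other two above them, and the log2 change of 0.29 (SE 0.12) did not pass (adjusted p = 0.0870) except without that library (0.0271). The effects in the depots were not shown to differ (difference -0.47, 95% interval -0.93 to -0.01, adjusted p = 0.184).

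Immediate early genes, which handling or stress can induce, moved with the brown labels. Fos, Jun, Junb, Egr1, Atf3 and Zfp36 summed to 46.4 to 70.3 CPM in brown wild-type and 169 to 183 CPM in labelled knockout libraries, and 4 of 6 were higher. Among the 14 marker lists no other had a gene that passed in brown fat, where 0.260% of all genes did. Sums were lower, with overlap, for adipocyte genes (9307 to 11389 CPM in wild-type against 8132 to 9383 CPM in labelled knockout libraries). The same held for brown adipocyte genes (4859 to 9098 against 3352 to 6235 CPM). It held too for endothelial genes (1088 to 1322 against 974 to 1118 CPM) and smooth muscle and pericyte genes (326 to 422 against 279 to 340 CPM). Adipose progenitor sums did not fall (326 to 394 against 338 to 394 CPM). Skeletal muscle genes summed to 1306 to 2276 CPM in brown wild-type and 1529 to 2396 CPM in labelled knockout libraries. The part of these in the Bmp2 and Gdf10 values was not tested.

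Bmp7 and Bmp4 were spread widely among brown libraries. Over all genes the brown wild-type libraries fell into pairs. Their disagreement, as chi-square per degree of freedom, was 23.9 between libraries 1 and 2 and 18.2 between 3 and 4. Across the pairs it was 70.7 to 91.5. For labelled knockout library 1 against libraries 2, 3 and 4 it was larger, at 217, 149 and 206. Among labelled knockout libraries 2 to 4 it was 22.5 to 52.5. Among wild-type libraries, Bmp7 and Bmp4 were higher in 1 and 2, and Inhbb in 3 and 4. Brown adipocyte genes summed to 4859 and 5660 CPM in wild-type libraries 1 and 2, and to 8943 and 9098 CPM in 3 and 4. Skeletal muscle genes summed to 2276 and 1740 CPM in 1 and 2, and to 1306 and 1523 CPM in 3 and 4. What sets the pairs, or labelled knockout library 1, apart was not tested. Bmp7, a factor of brown fat formation, stood at 2.03, 1.68, 0.774 and 0.630 CPM in brown wild-type and at 1.87, 1.44, 1.35 and 4.23 CPM in labelled knockout libraries, with a log2 change of 0.80 (95% interval -0.27 to 1.87, adjusted p = 0.395). Bmp4, a factor of adipocyte commitment, stood at 2.47, 2.76, 1.06 and 1.61 CPM in wild-type and at 2.42, 1.81, 1.81 and 3.39 CPM in labelled knockout libraries, with a log2 change of 0.26 (95% interval -0.49 to 1.0). Labelled knockout library 4 was the highest of the 8 brown libraries for both. In that library epithelial genes (Krt5, Krt14, Krt8, Krt18, Epcam, Cdh1) summed to 76.1 CPM, against 0.568 to 1.56 CPM in the other seven brown libraries, and their part in these values was not tested. Without it the log2 change of Bmp7 was 0.28 and that of Bmp4 0.03.

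In inguinal fat, Bmp7 stood at 4.65, 6.48, 3.39 and 6.33 CPM in wild-type and 3.21, 3.97 and 5.38 CPM in knockout libraries. Bmp4 stood at 1.40, 1.81, 1.41 and 1.40 CPM in wild-type and 1.42, 0.874 and 1.82 CPM in knockout libraries. Neither pair of groups was separated: the log2 change was -0.31 (95% interval -0.80 to 0.19) for Bmp7 and -0.11 (95% interval -0.70 to 0.47) for Bmp4. The annotated exons of Bmp4 overlap those of Gm15217 on the opposite strand, which held 4 counts in all.

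In brown fat, Tgfb1 stood at 15.4, 19.0, 12.3 and 12.8 CPM in wild-type and 14.6, 16.9, 24.1 and 21.2 CPM in labelled knockout libraries, with a log2 change of 0.36 (95% interval -0.07 to 0.80, adjusted p = 0.345) that passed with weighted limma-voom alone (0.0479). Tgfb3 stood at 13.3, 14.3, 12.4 and 13.3 CPM in wild-type and 22.6, 14.6, 11.0 and 13.7 CPM in labelled knockout libraries, a log2 change of 0.21 (95% interval -0.24 to 0.65). Labelled knockout library 1 alone stood apart for Tgfb3, and without it the log2 change was -0.03. Annotated exons of Tgfb2 overlap those of Gm29491, and those of Tgfb3 overlap Gm37804 and Gm48008, all on the opposite strand and not analysed here.

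Bmp8b, which acts on brown adipocytes and on the brain circuits that drive them, was near the limit of detection. It had 1, 2, 10 and 7 counts in brown wild-type libraries, 11, 10, 2 and 6 in labelled knockout ones, 1, 3, 1 and 7 in inguinal wild-type libraries and 5, 5 and 9 in knockout ones. The inguinal knockout libraries, at 0.168 to 0.237 CPM, lay above the wild-type range of 0.026 to 0.126 CPM, a separation in the higher direction that 18.3% of tested inguinal genes also had. With no filter on low counts, the log2 change was 1.37 (SE 0.83, adjusted p = 0.288). Reads of Bmp8b are uncertain in 2 ways: it has a near-identical neighbour, Bmp8a (49 counts), and its annotated exons overlap those of Ppie on the opposite strand (8731 counts). Whether the counting used strand is not stated.

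Inhba, whose product makes activin A, was as low. It had 4, 6, 7 and 5 counts in brown wild-type, 6, 1, 2 and 14 in labelled knockout, 2, 7, 3 and 7 in inguinal wild-type and 2, 4 and 1 in inguinal knockout libraries. All groups overlapped, and a change of Inhba was not detectable at this depth.

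Of the 7 ligands that differed between the wild-type tissues, 5 were higher in inguinal fat at day 24 than in brown fat at day 0.5. Inhbb led, with a log2 difference of 2.26 (SE 0.40, adjusted p = 0.00120), followed by Bmp7 with 2.04 (SE 0.37, adjusted p = 0.000714) and Gdf10 with 1.77 (SE 0.11, adjusted p = 1.16e-07). Bmp2 was higher by 1.03 (SE 0.22) and Tgfb1 by 0.49 (SE 0.14). Tgfb2 was lower in inguinal fat, with a log2 difference of -0.67 (SE 0.17, adjusted p = 0.00410). Tgfb3 was lower with a difference of -0.26 (adjusted p = 0.0490), a call lost in 9 of 14 alternatives, among them those without wild-type library 1, 2 or 4 of either depot (range of adjusted p 0.0296 to 0.246). None of the 7 overlapped between the tissues by library, as 56.3% of tested genes did not. Bmp4 alone did not pass (-0.39, 95% interval -1.0 to 0.22, adjusted p = 0.249), except without brown wild-type library 3 (0.0496). Skeletal muscle genes summed to 1306 to 2276 CPM in brown and 77.6 to 228 CPM in inguinal wild-type libraries. Adipocyte genes were higher in inguinal fat in 5 of 5, T cell genes (Cd3d, Cd3e, Cd4, Cd8a) in 3 of 4, and macrophage genes (Adgre1, Csf1r, Cd68, Mrc1, Lyz2) in 3 of 5. Immediate early genes were higher in 4 of 6, and adipose progenitor genes in 3 of 5 with 1 lower. Mast cell genes were lower in 4 of 4 (median log2 difference -2.18), endothelial genes in 4 of 5 and brown adipocyte genes in 3 of 5. Their part in the differences between the tissues was not tested.

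These comparisons share libraries: the brown wild-type libraries stand in the brown, the wild-type and the depot difference tests. Set side by side, Bmp2 was 1.42 CPM in brown wild-type fat, 3.02 in brown labelled knockout, 2.91 in inguinal wild-type and 2.37 in inguinal knockout fat, so the brown wild-type group was the low one. Immediate early genes also summed lowest in brown wild-type libraries, at 46.4 to 70.3 CPM. They summed to 169 to 183 CPM in brown labelled knockout, 102 to 112 in inguinal wild-type and 90.7 to 119 in inguinal knockout libraries. Their part in the Bmp2 values was not tested. Tgfb2 stood at 6.66, 10.04, 4.16 and 2.19 CPM in the same order of groups, with the inguinal knockout lowest. Inhbb was highest in inguinal wild-type fat, at 12.2 CPM, and intermediate in inguinal knockout fat, at 5.70 CPM. It stood at 2.55 CPM in brown wild-type and 1.91 CPM in brown labelled knockout fat. The lowest inguinal knockout library (5.32 CPM) lay above the highest brown one (4.70 CPM).

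To compare ligands with one another, CPM were divided by the merged exon length in kilobases from GENCODE M21, an annotation of a later build than the mm9 of the files, so these levels are approximate. In brown wild-type fat Tgfb3 (3.94 CPM per kb) and Tgfb1 (2.95) were highest and overlapped by library. They were followed, beyond their spread, by Tgfb2 (1.15), Bmp4 (0.878), Gdf10 (0.839), Inhbb (0.598), Bmp2 (0.399) and Bmp7 (0.318), each overlapping its neighbour in that order. Bmp8b (0.0346) and Inhba (0.0237) lay below the rest and overlapped each other. In inguinal wild-type fat the order was Tgfb1 (4.14), then, apart from it, Tgfb3 (3.30), Gdf10 (2.86) and Inhbb (2.86), which overlapped as neighbours. After a gap came Bmp7 (1.30), Bmp2 (0.818), Tgfb2 (0.719) and Bmp4 (0.670), again overlapping as neighbours, and then Inhba (0.0193) and Bmp8b (0.0178). In the knockout groups Tgfb3 (4.58) and Tgfb1 (3.80) again led brown fat, and Tgfb1 (4.19), Gdf10 (3.49) and Tgfb3 (2.96) led inguinal fat, where Inhbb stood at 1.34 and Tgfb2 at 0.377 CPM per kb.

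**Figure D3:**
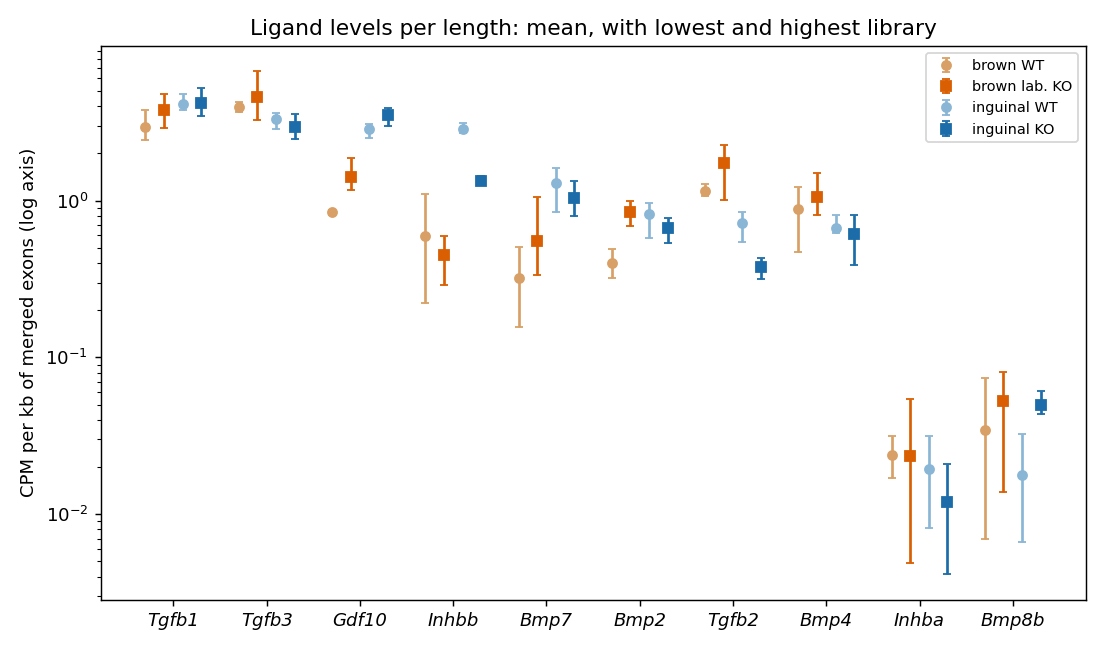
Length-scaled level of each ligand (vertical axis, CPM per kb of merged exons, log scale) in the 4 groups, as the mean with the lowest and highest library. By group mean, Tgfb1 and Tgfb3 lie between 2.95 and 4.58 CPM per kb in every group (single libraries 2.44 to 6.69). The mean of Inhbb moves from 0.598 in brown to 2.86 in inguinal wild-type fat, and Inhba and Bmp8b lie far below the rest.

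The genes whose log2 CPM followed each ligand most closely over the 15 libraries are given as a description, since the libraries fall into 2 depots and share depth and composition. Tgfb2 went with Clip4 (r = 0.97), Musk, a receptor of the nerve-muscle junction (0.95), and Nctc1 (0.95). Inhbb went with Rnf121, Prpf31 and Atp11a (0.98, 0.98 and 0.97), and Gdf10 with Ywhag, Insig1, a regulator of sterol synthesis, and Vegfd (0.99, 0.97 and 0.97). Bmp2 went with Bmper, a secreted BMP-binding protein (0.92), and Trpv2 (0.90). Bmp7 went with Tmem45a, Adgrd1 and Efemp1 (0.94, 0.94 and 0.93), Tgfb1 with Prag1, Gpx4 and Yipf3 (0.93, 0.93 and 0.91), Tgfb3 with Lingo3, Col23a1 and Lmo7 (0.91, 0.89 and 0.88), and Bmp4 with Itga5, Dpysl5 and Gpsm1 (0.89, 0.87 and 0.85). For Bmp8b, at its few counts, no r was above 0.78.

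The other genes of the pathway, 95 in 10 lists, were counted with the same fits. In inguinal fat 25 of 72 tested passed (7 higher, 18 lower), which is 34.7% against 28.6% of all genes, and their median log2 change was -0.14 against -0.02 over all genes. With all 4 groups in 1 fit the inguinal count was 17. In brown fat none of 74 passed with edgeR, with a median of 0.07 against 0.01, and 17 had an unadjusted p below 0.05, against 18.5% of all genes. Counts in brown fat were 10 with DESeq2, where 6.81% of all genes were called, and 10 in the joint fit of all groups (6.83%). They were 18 with weighted limma-voom (19.8%) and 19 when labelled knockout library 1 was left out (18.1%).

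Among the ligands outside the 10, 3 of 8 tested fell in the inguinal knockout and none rose. Bmp6, known as a regulator of iron balance, went from 12.4 ± 1.9 to 7.96 ± 0.51 CPM (log2 change -0.62, adjusted p = 0.00485). Bmp3 went from 7.47 ± 0.94 to 5.06 ± 0.44 CPM (-0.55, adjusted p = 0.0141), a call lost without knockout library 3 and with all groups in 1 fit. Mstn, the muscle growth inhibitor, had 1, 85, 36 and 66 counts in wild-type libraries 1 to 4 and 0, 0 and 1 in knockout libraries 2 to 4. Wild-type library 1, which also had the lowest sum of skeletal muscle genes (77.6 CPM), stood at 0.0260 CPM and knockout library 4 at 0.0264 CPM, so the groups overlap. The Mstn call was lost without any 1 of the 3 knockout libraries, with weighted limma-voom and with no filter on low counts. Of 13 alternatives run, 10 gave Mstn an adjusted p, and the call was kept in 5 of them. Mstn is made mainly by skeletal muscle, whose marker genes were lower in the same libraries, and their part in its value was not tested.

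Receptors moved in both directions. Of the type I receptors, 1 of 7 passed: Acvr1, a BMP and activin receptor, fell from 32.9 ± 4.2 to 20.9 ± 0.32 CPM (log2 change -0.64, adjusted p = 0.000744). Of the type II receptors, 1 of 5 passed: Tgfbr2, the TGF-beta receptor, rose from 142 ± 19 to 208 ± 17 CPM (0.57, adjusted p = 0.00178), a call lost with all 4 groups in 1 fit (0.0533). Of the co-receptors, 2 of 5 passed. Rgma, a BMP co-receptor, rose from 27.4 ± 0.54 to 47.2 ± 9.2 CPM (0.80), and Tgfbr3, which presents TGF-beta 2 to its receptors, fell from 208 ± 8.5 to 149 ± 15 CPM (-0.47, adjusted p = 0.00223). The activin type II receptors Acvr2a (0.13) and Acvr2b (0.54) did not pass.

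Inside the cell, 1 of 6 signal-carrying SMAD genes passed, Smad1, which fell from 24.9 ± 3.2 to 18.7 ± 0.51 CPM (log2 change -0.40, adjusted p = 0.0143). Of 6 intracellular inhibitors, Smurf1, a ubiquitin ligase that removes SMADs and receptors, rose from 60.2 ± 2.2 to 104 ± 9.4 CPM (0.80, adjusted p = 3.11e-05). Smad6, an inhibitory SMAD, fell (-0.53, adjusted p = 0.0406), a call kept in 6 of 13 alternatives.

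Outside the cell, 2 of 9 antagonists and 6 of 13 genes of latency and processing passed. The antagonists that fell were Chrdl1 (105 ± 6.9 to 71.3 ± 14 CPM, log2 change -0.54) and Sostdc1 (2.42 ± 0.49 to 1.14 ± 0.37 CPM, -1.05), and with all 4 groups in 1 fit both calls were lost (adjusted p = 0.230 and 0.132). Furin and Pcsk6, proteases that cut ligand precursors, rose (0.91 and 0.56), and Itgb8, an integrin subunit that activates latent TGF-beta, fell from 5.73 ± 0.78 to 2.19 ± 0.99 CPM (-1.36, adjusted p = 0.00188, and 0.0553 with all 4 groups in 1 fit). Tll1, a protease that cuts BMP antagonists, fell (-0.74). The remaining 2, Pcsk5 (-0.35) and Ltbp1 (-0.30), fell as well, Ltbp1 with its call kept in 5 of 13 alternatives and Pcsk5 with its call lost under the replicate block and with all 4 groups in 1 fit (adjusted p up to 0.356).

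Of 6 BMP target genes tested, Atoh8 fell, Id1 fell and Id2 rose. Atoh8 stood at 6.65, 6.88, 7.51 and 6.10 CPM in inguinal wild-type and 2.90, 1.88 and 2.48 CPM in knockout libraries (log2 change -1.47, adjusted p = 6.39e-05). Id2 went from 12.4 ± 1.5 to 24.0 ± 4.2 CPM (0.97), and Id1 from 39.3 ± 3.5 to 30.5 ± 4.1 CPM (-0.36, adjusted p = 0.0235, kept in 8 of 13 alternatives). Among TGF-beta target genes, Pmepa1, a feedback inhibitor of TGF-beta signalling, stood at 103, 125, 169 and 96.3 CPM in wild-type and 39.2, 38.0 and 41.8 CPM in knockout libraries (-1.62, adjusted p = 6.76e-05, and 0.123 with all 4 groups in 1 fit). No knockout library of Pmepa1 reached a wild-type one. Ccn2, the connective tissue growth factor, fell (-1.04, adjusted p = 0.00383), and Tgif1, a repressor of SMAD2 and SMAD3, rose (0.69, adjusted p = 0.00222).

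**Figure D4:**
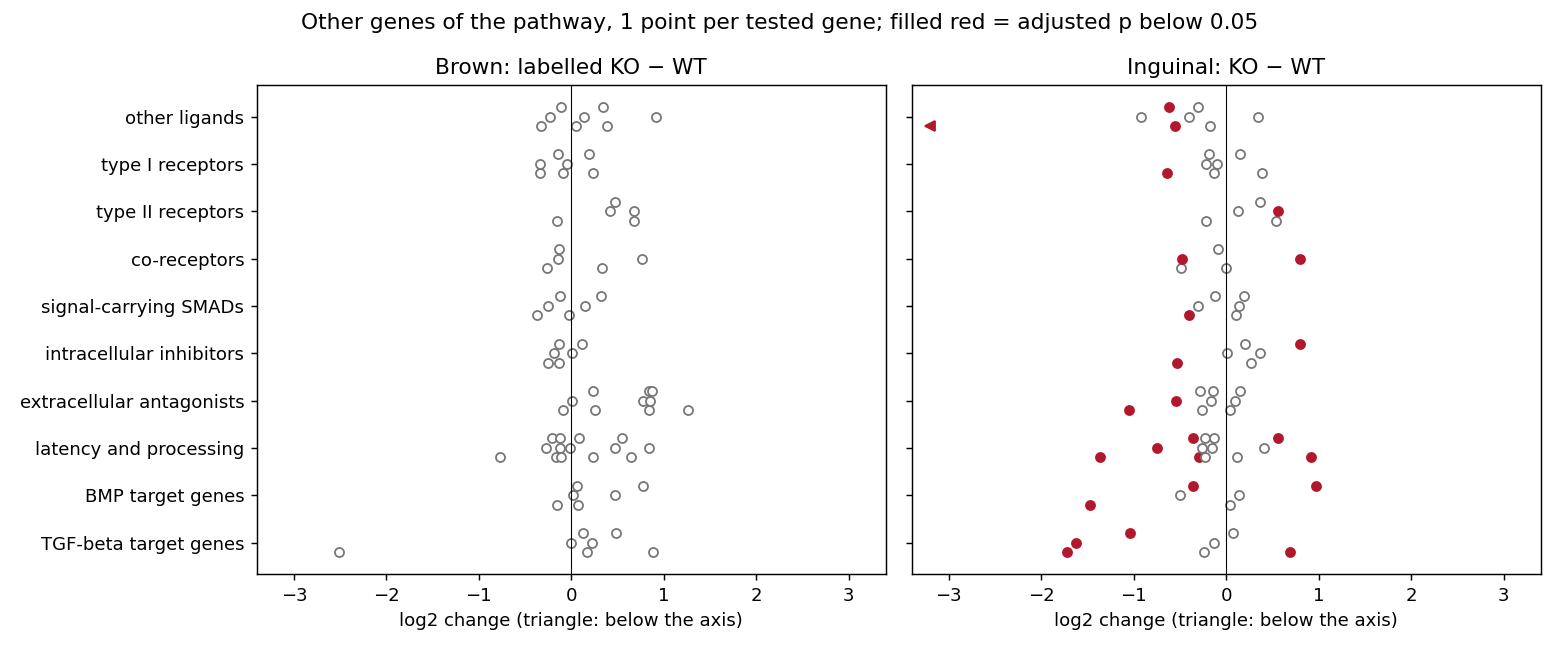
Log2 change of every tested pathway gene by list, for labelled knockout against wild type in brown fat and knockout against wild type in inguinal fat. Each circle is a gene, filled red where the adjusted p was below 0.05, and the triangle marks Mstn, whose fitted value lies off the axis; 25 of 72 genes are red in inguinal fat and none of 74 in brown fat.

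The difference between the depots passed for 11 of 77 pathway genes, 10 lower and 1 higher in the inguinal effect, which is 14.3% against 9.00% of all genes. The count was 18 without brown labelled knockout library 1, 6 without inguinal knockout library 2 and 4 without inguinal knockout library 3. Atoh8 stood out by p, with 3.56 ± 0.29 CPM in brown wild-type and 6.14 ± 0.59 CPM in labelled knockout fat against the fall in inguinal fat (difference -2.27, SE 0.23, adjusted p = 7.01e-05). Ccn2 (-1.94), Thbs1, an activator of latent TGF-beta (-1.12), and Smurf1 (0.77) also passed in all 20 alternatives, as Bmp2 and Tgfb2 did. Bmper, the BMP-binding protein that followed Bmp2 over the libraries, had a difference of -1.15 (SE 0.27, adjusted p = 0.0171), which was lost without inguinal knockout library 2 or 3.

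Between the wild-type tissues 51 of 75 pathway genes passed, 28 higher and 23 lower in inguinal fat, which is 68% against 61.4% of all genes. Extracellular antagonists had 8 of 10 higher, with log2 differences of 2.40 for Chrdl1 and 1.80 for Chrd, both BMP-binding proteins, and 0.98 for Fst, the activin-binding follistatin, while Grem1 was lower (-1.24), a call lost with all 4 groups in 1 fit (adjusted p = 0.0989). Among receptors, Bmpr1b was lower in inguinal fat (-3.17) and Acvr2a was lower (-0.74). Among the ligands outside the 10, Lefty1 was higher (2.70), Bmp3 was higher (1.67), and Bmp5 and the inhibin alpha gene Inha were lower (-3.13 and -3.28).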

How the data were processed

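Polyadenylated RNA was sequenced with a stranded kit, per the labels' protocols. The submitters' processing notes name the mm9 build and the tools edgeR, Subread, featureCounts and TopHat2 2.1.0, without annotation or strand setting. What the authors deposited is a table of raw, unnormalized counts. Of 37991 identifiers, 32919 matched a symbol and 26485 had a count.

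Genes were filtered with filterByExpr (minimum count 10), scaled by TMM and tested with the edgeR 4.0.16 quasi-likelihood F-test (robust, R 4.3.3), each comparison on its own libraries. P-values were adjusted by Benjamini-Hochberg over all genes tested, with calls at an adjusted p below 0.05. The SE is the absolute log2 change over the square root of F, and intervals are at 95%. Scripts were tested on simulated data. No pair of libraries in a group agreed within sampling noise (chi-square per degree of freedom at least 14.7). The members, lists, tests and alternatives were chosen with earlier results of these data known. From each list up to 4 genes were eligible for naming per comparison, by smallest p, and those named beyond that (Pcsk5, Ltbp1, Acvr2b, inguinal Acvr2a and Grem1) were chosen after their values were seen. Some genes of the pathway and marker lists are not reported here by name, and counts over all lists include them. Likeness used Pearson's r of log2(CPM + 1). Alternatives were DESeq2 1.42.0, limma-voom with library quality weights (limma 3.58.1), RLE size factors, no filter, a replicate block, a joint fit of all 4 groups, and leave-one-out fits.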

Additional observations from a re-analysis of the deposited data

Results flagged for a closer look

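The inguinal minus the brown knockout effect differed from 0 by its own test, with an adjusted p below 0.05, for 2 ligands, 11 pathway genes and Il33. On the log2 scale the difference was -1.37 for Bmp2 and -1.52 for Tgfb2. Among other ligands it was -0.99 for Bmp6 and -6.90 for Mstn, whose inguinal knockout libraries held 1 count. Among receptors and co-receptors it was -0.61 for Acvr1 and -1.27 for Bambi, a decoy receptor. It was -0.57 for Smad1 and 0.77 for Smurf1. Outside the cell it was -1.15 for Bmper, -0.80 for Ltbp4, which anchors latent TGF-beta in the matrix, and -1.12 for Thbs1. Among target genes it was -2.27 for Atoh8 and -1.94 for Ccn2. Bmp2, Tgfb2, Smurf1, Thbs1, Atoh8 and Ccn2 passed in all 20 alternatives. The call was lost in 12 of 20 for Smad1, 9 for Ltbp4, 7 for Bmp6, 4 each for Mstn and Bambi, and 2 each for Acvr1 and Bmper. Without inguinal knockout library 3 the calls of these 7 were lost, without library 2 all but those of Acvr1 and Ltbp4, and without library 4 those of Smad1, Ltbp4, Bmp6 and Mstn. The replicate block ended the calls of Smad1, Ltbp4, Bmp6, Bambi and Acvr1. For Il33 the difference was -2.65 (adjusted p = 0.0218), lost without inguinal knockout library 2 or 4. Tissue, age and the unequal fall of Il33 itself (log2 change -3.73 in inguinal and -1.08 in brown fat) cannot be told apart in these differences.

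One group held a distant library. Bmp4 stood at 1.81 CPM in inguinal wild-type library 2 and at 1.40 to 1.41 CPM in the remaining wild-type libraries. It was 1 of 33 groups of 4 libraries tested, and chance flags about 1 in 20.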

How the results depend on the processing

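Of 183 values of the 12 counts of calls under an alternative, 145 stayed within 1.5 times, and of 565 values for single genes 534 kept direction and side of the threshold. Ligands called in brown fat rose from 0 to 2 with DESeq2, 3 with limma-voom using library quality weights and 2 with all 4 groups in 1 fit (0 to 2 leaving out a library). Brown pathway genes rose from 0 to 10, 18 and 10 under the same settings (0 to 19), and all brown genes from 41 to 1032, 3127 and 1151, and to 67 with no filter (2 to 2905, the highest without labelled knockout library 1). With all 4 groups in 1 fit, inguinal ligands went from 2 to 1 and inguinal genes from 4498 to 2249, against 2 to 3 and 3274 to 4719 leaving out a library. Genes with a difference between the depots went from 1517 to 2351 with DESeq2 and 3696 with weighted limma-voom (632 to 3571), and pathway genes ranged from 4 to 18. The cause of these shifts was not tested.

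Replicate numbers were not shown to pair the libraries. Correlations of same-numbered deviations were -0.07 to 0.20 in brown and -0.13 to 0.10 in inguinal fat. Between different numbers they were -0.18 to 0.12 in brown and -0.13 to 0.20 in inguinal fat. These ranges overlap, but the highest brown values, 0.20 and 0.15, were same-numbered, so pairing in brown fat is left undecided. With the replicate number as a block, brown genes called were 7, genes differing between the depots 859 and pathway genes among them 6.

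Log2 changes that missed the threshold and turned sign were Inhbb in brown fat (0.055 without wild-type library 3, and -0.70 to 0.055 over the fits leaving out a library), Tgfb3 in brown fat (-0.031 without labelled knockout library 1, -0.031 to 0.34), Bmp4 in inguinal fat (0.12 without knockout library 3, -0.37 to 0.12) and Tgfb1 in inguinal fat (-0.094 with weighted limma-voom, and -0.17 to 0.15 leaving out a library, below 0 without wild-type library 3 or 4 or knockout library 2). Depth limits Bmp8b and Inhba, with 20 and 22 counts over the 4 brown wild-type libraries.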
